A study of Mus musculus with 2 samples.

Results

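Necab1-high neurons are glutamatergic neurons of the mouse thalamus with a high level of Necab1, which encodes a neuronal EF-hand calcium-binding protein, and a low level of Tnnt1, the slow skeletal troponin T gene that marks many sensory relay neurons. They were selected on measured values, which 912 of 19996 barcodes met. Each had at least 500 genes, at least 10000 unique molecular identifiers (UMIs, the counted RNA molecules) and at most 15% mitochondrial UMIs. Each also had at least 2 UMIs of Slc17a6 and Slc17a7 together, at most 2 of Gad1 and Gad2, at least 10 of Snap25 and Syt1, at least 5 Necab1 UMIs per 10000 and fewer than 1.5 Tnnt1 UMIs per 10000. These 8 genes and the mitochondrial genes therefore describe the cells and were not tested. The thalamus passes sensory, motor and limbic signals to the cortex through projection neurons that release glutamate, loaded into vesicles by the transporters that Slc17a6 and Slc17a7 encode. Mouse thalamic projection neurons are known to vary along a shared axis, with Tnnt1 marking core sensory relay neurons, Necab1 neurons of higher-order nuclei, and Calb2, which encodes calretinin, midline and intralaminar neurons.

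The cells came from the thalamus of 2 untreated wildtype C57BL/6J mice aged 2 months, 1 library per mouse, and the 2 libraries form a single group. The tissue was dissociated enzymatically (papain, protease and dispase) in a choline chloride solution, and the labels give the cell type of each sample only as mixed, so the neurons carry no record of the nucleus they came from. Comparisons were made between groups of neurons within the same 2 animals, never between conditions. Below, a pair of values is for mouse 1 and then mouse 2, CPM is the share of a gene among the UMIs summed over the cells of a group in 1 mouse, scaled to counts per 1000000, and a log2 fold change is given with its SE from edgeR's quasi-likelihood test on these sums with mouse as a block. Genes counted as called when the Benjamini-Hochberg adjusted p over all tested genes was below 0.05 and the log2 fold change was 1 or more in size.

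The libraries held 163418203 and 204839993 UMIs in 7889 and 12107 barcodes. The steps up to the Snap25 and Syt1 limit left 454 and 2254 neurons, among which Necab1-high neurons made up 11.2% (51 cells, 95% exact binomial interval 8.48 to 14.5) in mouse 1 and 38.2% (861 cells, 36.2 to 40.2) in mouse 2. The gate also held 75 and 127 Tnnt1 relay neurons (Tnnt1 at least 1.5 and Necab1 below 5 per 10000). It further held 13 and 127 Calb2-high Necab1-low neurons (Calb2 at least 5, Necab1 below 5 and Tnnt1 below 1.5 per 10000, no habenular marking), 150 and 301 habenular-marked neurons (at least 3 UMIs of Pou4f1, Chrnb3 and Chrnb4) and 165 and 838 remaining neurons. Intervals cover counting error only. The median Necab1-high neuron held 93070 and 51239 UMIs and 9251 and 8260 genes. Of 36 barcodes found in both libraries, 1 was a Necab1-high neuron and none was one in both. Scrublet marked 0 and 23 of the members as doublets, which were kept in the values below.

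Necab1 itself (chr4:14952245-15149794, minus strand, GRCm38) stood at 906 and 945 CPM in Necab1-high neurons, 69.8 and 98.8 CPM in Tnnt1 relay neurons and 212 and 191 CPM in Calb2-high Necab1-low neurons. Over single members, Necab1 ran from 5.14 to 15.4 per 10000 with a median of 8.51 in mouse 1, and from 5.002 to 20.1 with a median of 8.78 in mouse 2. The distribution had no gap at the threshold of 5. Just inside it, at 5 to 6 per 10000, 6 and 111 members had 557 and 547 Necab1 CPM. Just outside it, at 4 to 5, 9 and 98 neurons had 449 and 450 CPM. At the Tnnt1 limit, 3 and 29 members with 1 to 1.5 per 10000 had 128 and 121 Tnnt1 CPM, and 14 neurons of mouse 2 with 1.5 to 2 had 170 CPM. In all, 12 and 48 neurons that passed the Necab1 limit were left out by Tnnt1. Slc17a6 was at 732 and 779 CPM in members and Slc17a7 at 63.1 and 26.3 CPM, whereas Tnnt1 relay neurons had 655 and 570 CPM of Slc17a6 and 226 and 195 CPM of Slc17a7.

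The label was checked against 4 markers outside the rule, Gbx2, Calb2, Ntng1 and Cck. Gbx2 (chr1:89927956-89931179, minus strand), a homeobox factor that thalamic neurons need to differentiate, was at 82.9 and 98.8 CPM in members and 29.5 and 27.0 CPM in Tnnt1 relay neurons, a log2 fold change of 1.65 ± 0.20 (adjusted p = 0.000834). Calb2 (chr8:110137502-110168210, minus strand) was at 543 and 833 CPM in members and 52.1 and 91.6 CPM in Tnnt1 relay neurons (3.25 ± 0.36, adjusted p = 0.000542). For both genes the groups did not overlap, which carries little weight with 2 values per group, and the share over all tested genes was not counted. Ntng1 (chr3:109780040-110144011, minus strand), which encodes the axonal adhesion protein netrin-G1, was at 2970 and 2630 CPM in members and 2977 and 2606 CPM in Tnnt1 relay neurons, with a log2 fold change of -0.02 ± 0.34. Cck (chr9:121489824-121495694, minus strand), the cholecystokinin precursor, was at 606 and 619 CPM in members and 886 and 1016 CPM in Tnnt1 relay neurons, a difference that missed the threshold (-0.66 ± 0.23, adjusted p = 0.136). Of these 4 markers, 2 thus passed the test, Gbx2 and Calb2. For Calb2 this describes the summed members, of which the Calb2-high cells defined below were 25.5% and 36.5%. Calb2-low members, set apart by Calb2 itself, were not tested against Tnnt1 relay neurons. Those with at least 1% ribosomal protein UMIs had 28.9 and 109 CPM of Calb2, against 52.1 and 91.6 CPM in all Tnnt1 relay neurons. The check by Calb2 therefore does not extend to the Calb2-low members.

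Markers of other cell types were summed in the same cells. The 10 GABAergic markers summed to 3.52 and 3.47 CPM in members, with 6 and 3 of them at 0 UMIs. Gad1 and Gad2 are on that list and were capped by the rule, so part of the low sum is fixed by the selection. The 12 markers of hypothalamic, zona incerta or midbrain glutamatergic neurons summed to 0.660 and 2.00 CPM, with 10 and 3 at 0. The 10 markers of the medial habenula summed to 14.96 and 38.5 CPM, highest for Nwd2. The 8 cortical or hippocampal markers summed to 75.01 and 58.1 CPM, of which Slc17a7, a gene of the rule, made 63.1 and 26.3 CPM. In mouse 2 the highest of them was Bhlhe22, at 28.7 CPM in members and 42.3 CPM in those with high Calb2. Bhlhe22 was also among the genes called higher in members than in Tnnt1 relay neurons. Oligodendrocyte markers summed to 925 and 664 CPM in members, compared with 36318 and 52879 CPM in cells with at least 5 UMIs of Mog and Mag and fewer than 10 of Snap25 and Syt1. Astrocyte markers summed to 587 and 651 CPM in members and 354 and 345 CPM in Tnnt1 relay neurons. Slc1a2, a glutamate transporter gene, accounted for 534 and 592 CPM of the members' sum. Microglial markers summed to 181 and 52.9 CPM and endothelial markers to 46.4 and 26.2 CPM in members.

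Calb2 ranged widely among the members. Its median was 0.458 and 1.51 per 10000, while the 90th percentile reached 14.99 and 25.9 and the highest cell 73.3 and 71.2. No Calb2 UMI was found in 35.3% of members in mouse 1 (22.4 to 49.9) and 24.2% in mouse 2 (21.3 to 27.2). Splitting at 5 per 10000 gave 13 and 314 Calb2-high members, which were 25.5% (14.3 to 39.6) and 36.5% (33.2 to 39.8), and 38 and 547 Calb2-low members. There was no gap at 5. In mouse 2, 22 members lay between 4 and 5 per 10000 with 442 Calb2 CPM and 17 between 5 and 6 with 560 CPM. In mouse 1 these were 0 members and 1. Necab1 was not part of the split, but the rule held it at 5 per 10000 or more in every member of both subsets. It stood at 840 and 901 CPM in Calb2-high and 927 and 975 CPM in Calb2-low members. After each cell was thinned to 10000 UMIs, 41.2% and 61.2% of members had a Calb2 UMI (64.7% and 75.8% unthinned), against 2.80% and 10.95% of the Mog and Mag marked cells, which should lack it.

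**Figure D1:**
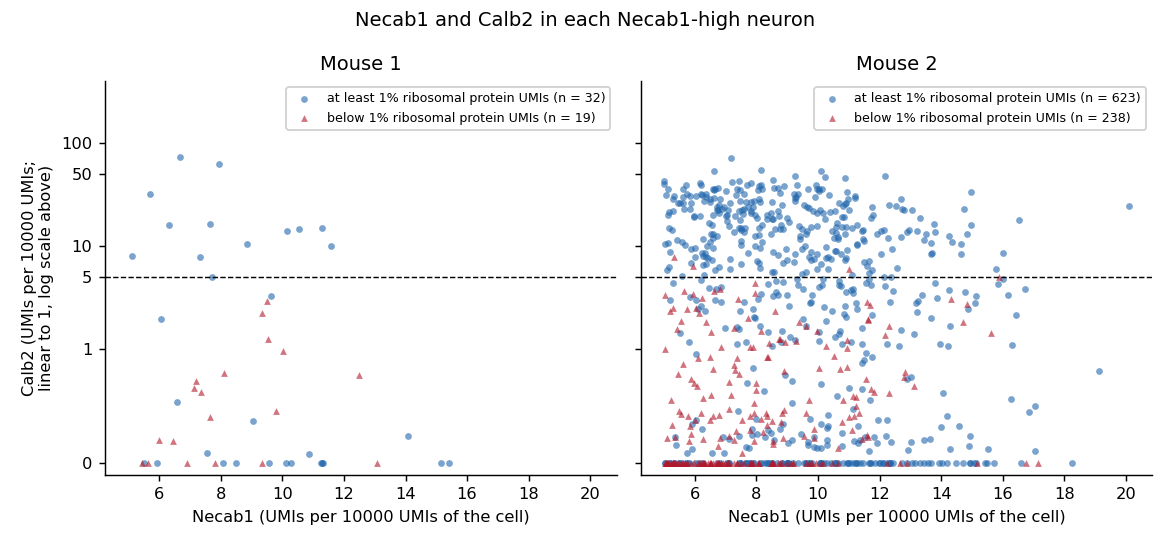
Each point is 1 Necab1-high neuron of mouse 1 (left, 51 cells) or mouse 2 (right, 861 cells), with Necab1 on the x axis and Calb2 on the y axis, both in UMIs per 10000 UMIs of the cell; the y axis is linear to 1 and logarithmic above, and the dashed line is the Calb2 split at 5. Triangles are cells with under 1% of their UMIs from ribosomal protein genes; 3 of the 257 lie above the line.

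The members also varied in RNA make-up, which moved with Calb2. Ribosomal protein genes held under 1% of the UMIs in 37.3% of members in mouse 1 (19 cells, 24.1 to 51.9) and 27.6% in mouse 2 (238 cells, 24.7 to 30.8). In mouse 2 few cells lay near that limit: of its 861 members, 124 had up to 0.25% and 94 had 0.25 to 0.5%, but 9 had 0.75 to 1%, and 182 had 3 to 4%. Of the 51 members of mouse 1, 12 had up to 0.25%, 4 had 0.25 to 0.5%, 1 had 0.5 to 0.75%, 2 had 0.75 to 1% and 7 had 1 to 1.5%. The cells below 1% were shallower, with medians of 63727 and 30705 UMIs against 99055 and 57127 in the other members, and their median mitochondrial share was higher, at 4.62% and 3.93% against 3.01% and 1.99%. They were 0 of 13 and 3 of 314 Calb2-high members (0% and 0.955%), but 19 of 38 and 235 of 547 Calb2-low members (50% and 43.0%). Among Tnnt1 relay neurons 21.3% and 19.7% of cells were below 1%, and among Calb2-high Necab1-low neurons 0% and 3.15%. In Tnnt1 relay neurons the limit cut through a continuous range, with 11 cells of each mouse at 0.75 to 1% and 17 and 21 at 1 to 1.5%, and they formed no separate low set. Among the 32 and 623 members with at least 1%, Calb2-high cells were 40.6% and 49.9%. What set this share was not tested. Values without these cells are given beside the genes described below whose call they end and beside some, not all, of the lists whose counts they move.

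**Figure D2:**
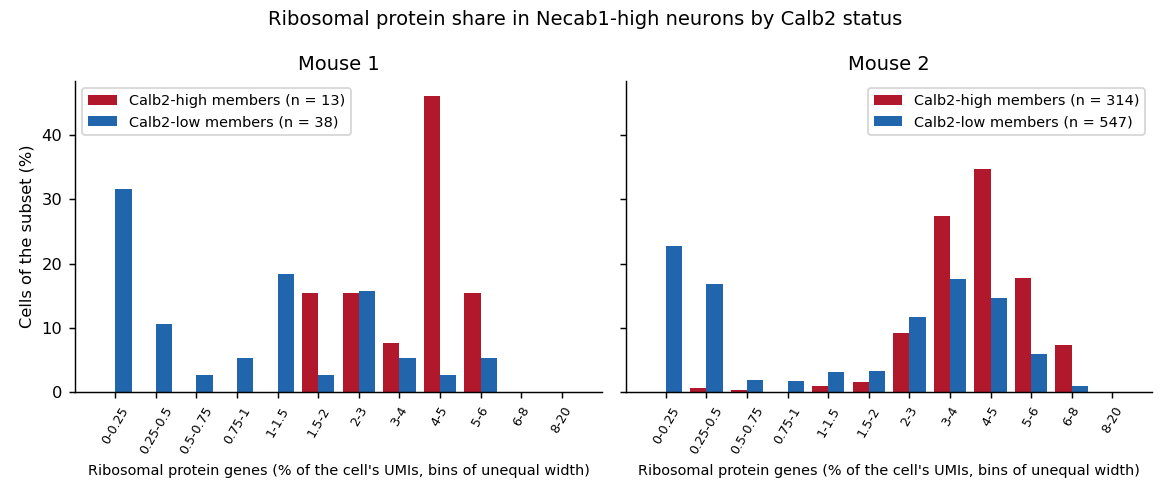
Bars give the percent of Calb2-high members (red) and Calb2-low members (blue) in each bin of the share of UMIs from ribosomal protein genes, for mouse 1 (left) and mouse 2 (right); bins differ in width. In mouse 2, the Calb2-low members form a low set under 0.5% and a high set mostly between 2 and 6%, and 3 of the 314 Calb2-high members lie below 1%.

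Against Tnnt1 relay neurons, Necab1-high neurons had higher levels of the LIM-homeodomain factors Lhx2 and Lhx9, the synapse organiser C1ql3, the GABA-A receptor subunits Gabra5, Gabra2 and Gabra3 and 18 receptors for neuromodulators, and lower levels of Prkcd, Pcp4, Kcna1, Cplx1 and Vamp1. Of 15788 genes tested, 6.53% were called, with 723 higher (4.58%) and 308 lower (1.95%). The group gates use the same counts as the test, which makes p too small for genes that vary with Necab1 or Tnnt1 from cell to cell. In bulk sums of this kind, fewer cells with a transcript and less transcript per cell cannot be told apart. Within each mouse, all 1031 called genes had the sign of the fit. The fit rests on these same 2 mice, so such agreement, here and below, is no independent check. Members had 2.02% and 3.14% of UMIs from ribosomal protein genes and Tnnt1 relay neurons 1.63% and 2.13%. Genes longer than 100 kb took 40.7% and 38.8% of UMIs in members and 38.0% and 39.4% in Tnnt1 relay neurons. Of the genes called higher in members, 38.7% were that long, and of those called lower 22.4%, beside 15.5% of all genes tested.

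Among 26 tested transcription factors of thalamic glutamatergic neurons, 4 were higher and 2 lower in members, and the list's median log2 fold change was -0.02 beside 0.02 over all genes. Lhx2 (chr2:38339281-38369733, plus strand), a LIM-homeodomain factor that patterns thalamic neurons, was at 47.7 and 62.4 CPM in members and 5.31 and 10.4 CPM in Tnnt1 relay neurons (2.81 ± 0.37, adjusted p = 0.00122). Its relative Lhx9 was at 87.1 and 121 CPM in members and 25.6 and 36.3 CPM in relay neurons (1.74 ± 0.26, adjusted p = 0.00242). Nr2f2, the nuclear receptor COUP-TFII, was lower at 43.3 and 36.7 CPM, against 140 and 93.7 CPM in relay neurons (-1.60 ± 0.37, adjusted p = 0.0224). The other 20 did not pass: Tcf7l2, which specifies thalamic identity, was at 1521 and 1503 CPM in members and 1446 and 1536 CPM in relay neurons, with a log2 fold change of 0.0003 ± 0.23 (adjusted p = 1). Without the cells under 1% ribosomal protein UMIs the log2 fold change of Nr2f2 was -1.31 and missed the threshold (adjusted p = 0.092).

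Of 26 genes known to differ between thalamic nuclei, 9 were higher and 5 lower. Stxbp6, a SNARE-binding protein, was at 301 and 433 CPM in members and 42.2 and 46.5 CPM in Tnnt1 relay neurons (2.99 ± 0.44, adjusted p = 0.0023). Ramp3, an accessory protein of calcitonin-family receptors, was at 197 and 138 CPM in members and 344 and 364 CPM in relay neurons (-1.14 ± 0.25, adjusted p = 0.0183). Without the cells under 1% ribosomal protein UMIs the value for Ramp3 was -1.01 (adjusted p = 0.0751), and the call ended. Pvalb, a calcium buffer of fast-spiking neurons, was at 1.98 and 1.42 CPM in members and 47.0 and 36.6 CPM in relay neurons (-4.60 ± 0.30, adjusted p = 6.75e-05). Scn4b, a sodium channel β subunit, was at 5.28 and 2.67 CPM against 45.3 and 26.5 CPM (-3.30 ± 0.33, adjusted p = 0.000381). These 2 genes fall outside the rule for named genes, which asks for at least 50 CPM on the higher side, and were chosen after their values were seen. For all 4 genes, members and relay neurons did not overlap, but with 2 values per group this carries little weight. The share of all tested genes without overlap was not counted.

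Calcium-binding proteins moved both ways, 5 higher and 5 lower of 22. Besides Calb2, Hpcal4, a neuronal calcium sensor, was higher at 45.8 and 83.1 CPM, against 13.7 and 19.6 CPM in Tnnt1 relay neurons (1.91 ± 0.34, adjusted p = 0.00585). Necab3, of the same family as Necab1, was lower at 19.6 and 17.0 CPM against 72.2 and 69.7 CPM (-1.97 ± 0.21, adjusted p = 0.000476). Pcp4, a calmodulin-binding peptide, was lower at 1724 and 1330 CPM against 5126 and 4639 CPM (-1.70 ± 0.28, adjusted p = 0.00434). The third family gene, Necab2, did not pass, being at 90.2 and 85.7 CPM in members and 102 and 107 CPM in relay neurons (-0.27 ± 0.19, adjusted p = 0.499). Of 21 neuropeptide and granin genes, 3 were higher and 2 lower. Vgf, a secreted peptide precursor, was lower at 124 and 71.0 CPM against 218 and 192 CPM (-1.13 ± 0.29, adjusted p = 0.0375). Without those cells it was -1.001 (adjusted p = 0.0525), and the call ended.

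Of 41 synapse organiser genes, 8 were higher in members and 1 lower, and of 47 axon guidance and adhesion genes, 7 were higher and 1 lower. These counts were 6 and 1 for the organisers and 5 and 4 for the guidance genes without the cells under 1% ribosomal protein UMIs. C1ql3, a secreted protein that bridges synaptic partners, was at 129 and 313 CPM in members and 1.61 and 16.0 CPM in Tnnt1 relay neurons (4.95 ± 0.55, adjusted p = 0.00053). Nxph1, a neurexin ligand, was at 686 and 988 CPM against 65.2 and 236 CPM (2.59 ± 0.38, adjusted p = 0.00233). Nptxr, the neuronal pentraxin receptor, was at 171 and 425 CPM against 51.6 and 67.0 CPM (2.21 ± 0.26, adjusted p = 0.000626). Lrrc4c, the synaptic ligand of netrin-G1, was higher too (1.44 ± 0.28), whereas Ntng1 did not pass the test. The Slit receptor Robo2 was at 163 and 244 CPM in members and 21.0 and 58.1 CPM in relay neurons (2.44 ± 0.25, adjusted p = 0.000423). Epha5 (1.79 ± 0.27) and Pcdh19 (1.36 ± 0.35) were also higher, while the membrane-anchored semaphorin Sema7a was lower at 20.9 and 10.6 CPM against 78.0 and 55.0 CPM (-2.17 ± 0.26, adjusted p = 0.000722). The call for Pcdh19 ended under 6 of the 12 alternatives with a test, among them those without the cells under 1% ribosomal protein UMIs and without doublets, but its log2 fold change stayed between 1.24 and 1.48 under the alternatives with a test and those leaving out a mouse.

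Transmitter receptors differed by subunit. Of 19 GABA and glycine receptor genes, 7 were higher and 1 lower. The α subunits Gabra5, Gabra2 and Gabra3 were at 42.9 and 62.5, 148 and 239, and 95.2 and 156 CPM in members, against 3.46 and 6.76, 26.7 and 55.6, and 16.1 and 42.4 CPM in Tnnt1 relay neurons, with log2 fold changes of 3.38 ± 0.39, 2.25 ± 0.23 and 2.18 ± 0.37. Gabrd, the δ subunit of extrasynaptic GABA-A receptors, went the other way, at 93.3 and 56.8 CPM against 215 and 186 CPM (-1.48 ± 0.27, adjusted p = 0.00765). Without the cells under 1% ribosomal protein UMIs the call for Gabrd ended, while its value was about as large (-1.47, adjusted p = 0.079). Among 22 ionotropic glutamate receptor genes, 4 were higher and 3 lower. The NMDA receptor subunit gene Grin3a was at 235 and 274 CPM in members and 36.7 and 69.4 CPM in relay neurons (2.29 ± 0.23, adjusted p = 0.000421), whereas Grin2c was at 37.2 and 20.8 CPM against 78.4 and 72.8 CPM (-1.46 ± 0.28, adjusted p = 0.00858). The kainate receptor subunit gene Grik4 was higher (1.55 ± 0.28, adjusted p = 0.00693), though not past the threshold without the cells under 1% ribosomal protein UMIs (1.06, adjusted p = 0.0926), and the AMPA receptor partner gene Cacng5 was lower (-1.23 ± 0.28). Grm8, a presynaptic metabotropic glutamate receptor, was at 156 and 246 CPM in members and 4.94 and 11.7 CPM in relay neurons (4.62 ± 0.25, adjusted p = 3.45e-05), 1 of 2 higher genes among 7.

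Among 19 calcium and HCN channel genes, 5 were higher and 1 lower. The lower one was Hcn4, a slow subunit of the hyperpolarisation-activated channels, at 41.8 and 20.8 CPM in members and 80.4 and 53.8 CPM in Tnnt1 relay neurons (-1.18 ± 0.20, adjusted p = 0.0046). Cacna1e, the pore subunit of R-type calcium channels, was higher (2.01 ± 0.33, adjusted p = 0.0041), as was the auxiliary subunit gene Cacna2d2 (1.24 ± 0.19, adjusted p = 0.00294). Of 40 potassium channel genes, 5 were higher and 7 lower, with a median of -0.16. Kcnt2, a sodium-activated channel, was at 273 and 338 CPM in members and 5.31 and 23.9 CPM in relay neurons (4.71 ± 0.44, adjusted p = 0.000282). Kcnq5, which carries M-current, was at 119 and 340 CPM against 13.2 and 36.7 CPM (3.17 ± 0.36, adjusted p = 0.000556). Kcnip1, a partner of Kv4 channels, was higher as well (4.35 ± 0.53). Kcna1, the Kv1.1 channel of fast-firing axons, was lower at 44.4 and 25.1 CPM against 169 and 99.0 CPM (-1.98 ± 0.26, adjusted p = 0.00129). The sodium channel genes Scn9a (2.00 ± 0.21) and Scn3b (1.92 ± 0.21) were the 2 higher ones of 10.

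Of 53 receptors for neuromodulators, 18 were higher and 2 lower, and the median log2 fold change of 1.03 stood beside 0.02 over all genes (also 1.03 with Ntsr1, which had 0 UMIs in both relay sums, at its bound against 3 counts per library). Oprm1, the μ opioid receptor, was at 215 and 281 CPM in members and 34.2 and 55.6 CPM in Tnnt1 relay neurons (2.50 ± 0.46, adjusted p = 0.00765). Htr2c, a serotonin receptor, was at 170 and 266 CPM against 31.6 and 52.8 CPM (2.36 ± 0.22, adjusted p = 0.000299). The relaxin receptor gene Rxfp1 (43.1 and 29.5 CPM in members, 0 and 1.83 CPM in relay neurons) and the galanin receptor gene Galr1 (8.80 and 23.1 CPM, against 0 and 0.563 CPM) are examples at low levels, named after their values were seen. The lower ones were Vipr2, a receptor for vasoactive intestinal peptide, at 27.7 and 18.7 CPM against 128 and 67.6 CPM (-2.04 ± 0.23, adjusted p = 0.000553), and the β1 adrenergic receptor gene Adrb1 (-1.23 ± 0.22, adjusted p = 0.00593).

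Of 38 synaptotagmin and vesicle genes, 11 were higher and 2 lower. Stx1a, a SNARE of the plasma membrane, was at 79.4 and 87.1 CPM in members and 16.9 and 28.6 CPM in Tnnt1 relay neurons (1.88 ± 0.21, adjusted p = 0.000539). Syt17 was at 71.7 and 109 CPM against 5.06 and 19.7 CPM (2.99 ± 0.46, adjusted p = 0.00294). Cplx1, a complexin that clamps and triggers fusion, was lower at 172 and 103 CPM against 645 and 425 CPM (-2.00 ± 0.24, adjusted p = 0.000713). The vesicle SNARE gene Vamp1 was at 38.1 and 24.5 CPM against 138 and 91.8 CPM (-1.90 ± 0.23, adjusted p = 0.000758). Of 32 immediate early and stress genes, 2 were higher and 1 lower. Fosb, an activity-induced transcription factor, was higher in both mice but at very different levels, 2.64 and 97.9 CPM in members and 0.494 and 21.1 CPM in relay neurons (2.32 ± 0.43, adjusted p = 0.0078). The call for Fosb was lost with DESeq2 (adjusted p = 0.0842), without the mouse as a block (0.821) and with cells of 2 to 5% ribosomal protein UMIs (0.0797).

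Outside the lists, the largest positive log2 fold changes among called genes with a mean of at least 50 CPM in members and the same direction in both mice, clone-named, predicted and ribosomal genes aside, were those of Thsd7b, Cntnap3, Rasgrf2, Ldb2, Lypd1, Tll1, Pcsk5 and Gpc6, between 3.98 and 6.17. Thsd7b (chr1:129273302-130219278, plus strand), which encodes a thrombospondin-domain membrane protein, was at 278 and 497 CPM in members and 0.617 and 13.8 CPM in Tnnt1 relay neurons (6.17 ± 0.70, adjusted p = 0.000581). Gpc6, a glypican, was at 272 and 561 CPM against 18.4 and 32.7 CPM (3.98 ± 0.26, adjusted p = 6.75e-05). Lypd1, a Ly6-family modulator of nicotinic receptors, was at 45.3 and 70.3 CPM against 0.617 and 3.66 CPM (4.90 ± 0.36, adjusted p = 0.000109). Tll1, a tolloid-like metalloprotease, was at 66.0 and 73.5 CPM against 3.33 and 2.53 CPM (4.54 ± 0.57). Thinned to 10000 UMIs, 47.1% and 72.9% of members had a Thsd7b UMI, against 0 of 75 (exact interval up to 4.80%) and 8.66% of relay neurons and 1.01% and 5.55% of Mog and Mag marked cells. The 8 lower genes were Car4, Cnih3, Ccdc141, Slc9a3r1, Adamts19, Prkcd, Adgrf5 and Hs3st1, with log2 fold changes between -3.53 and -2.46. Prkcd, the protein kinase C δ gene known for its expression in sensory relay nuclei, was at 355 and 125 CPM in members and 1411 and 1070 CPM in relay neurons (-2.52 ± 0.31, adjusted p = 0.000908). Car4, a membrane-bound carbonic anhydrase, was at 9.02 and 2.73 CPM against 73.1 and 41.0 CPM (-3.53 ± 0.36). Cnih3, an AMPA receptor partner, was at 23.1 and 13.7 CPM against 138 and 151 CPM (-3.05 ± 0.35).

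**Figure D3:**
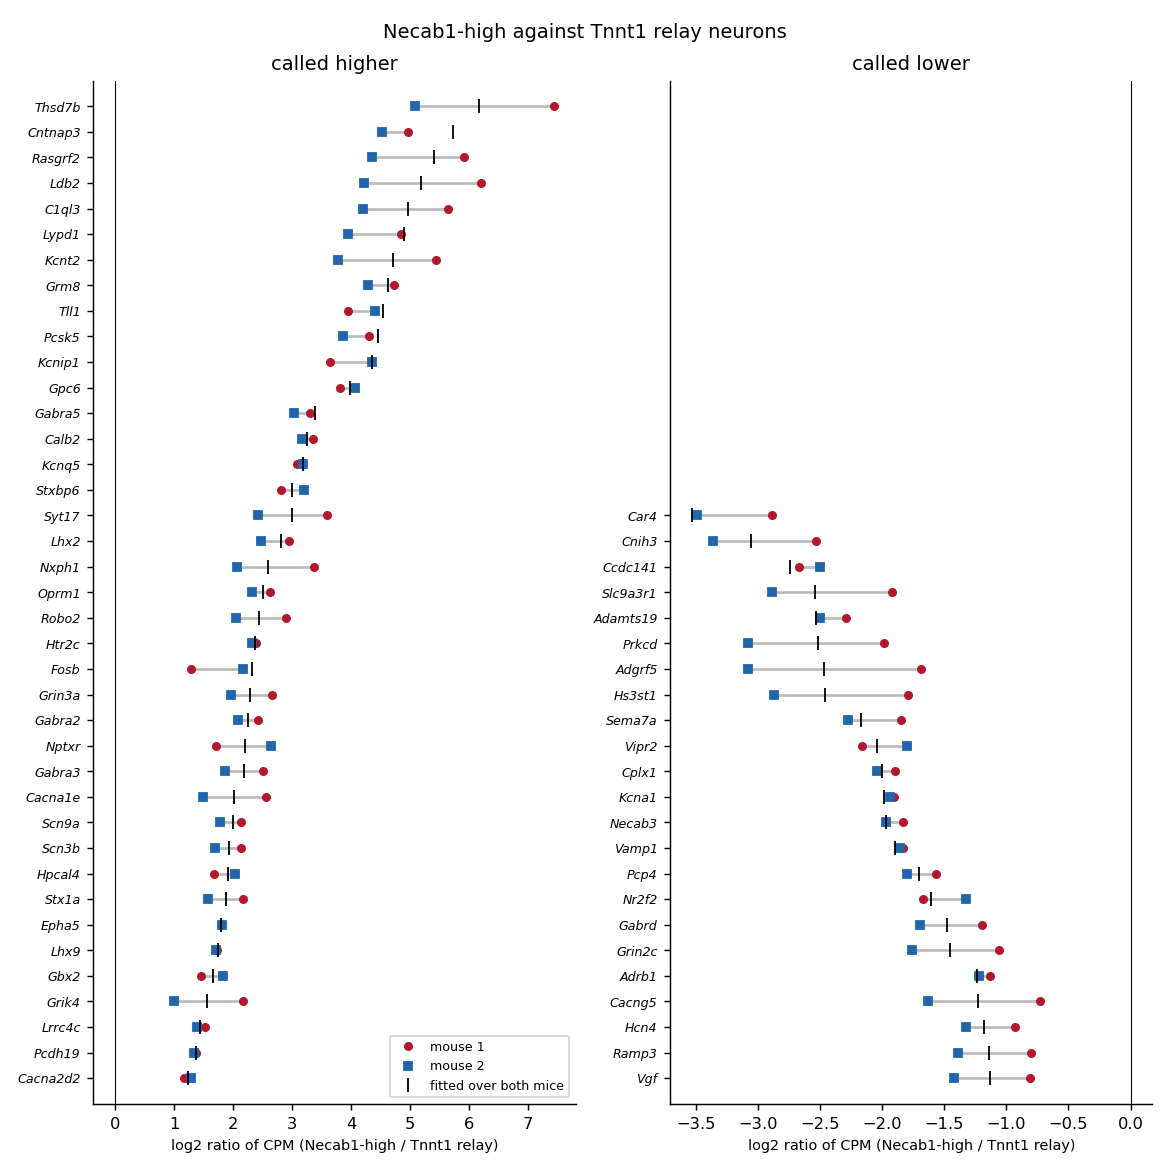
For the selected genes, the log2 ratio of CPM of Necab1-high over Tnnt1 relay neurons within mouse 1 (circles) and mouse 2 (squares), with 1 CPM added to both, and the fitted log2 fold change (ticks); genes called higher are on the left and lower on the right. The 39 higher and 23 lower genes shown had to have the same direction in both mice to be selected, so their side of 0 is not a finding; fitted values run up to 6.17 for Thsd7b and down to -3.53 for Car4.

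Of the 63 genes that the naming rule selected in this comparison, 33 stayed past both thresholds under all 12 alternatives with a test, and 6 lost their call when cells under 1% ribosomal protein UMIs were left out of all groups. Without the mouse as a block the count of calls was 429, and with cells of 2 to 5% ribosomal protein UMIs only it was 516, of which 445 were shared with the 1031.

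Set against Calb2-high Necab1-low neurons, 3.77% of 15784 genes were called, with 318 higher in members (2.01%) and 277 lower (1.75%). In mouse 1 alone, 577 of the 595 had the sign of the fit, and in mouse 2 all did. Lhx2, Grm8 and C1ql3, all higher in members than in Tnnt1 relay neurons, did not pass the test here. Grm8 was at 156 and 246 CPM in members and 178 and 211 CPM in the other group (0.18 ± 0.21, adjusted p = 0.694). RNA make-up moved with the groups as well. Ribosomal protein genes gave 2.02% and 3.14% of UMIs in members, against 4.21% and 4.39% in Calb2-high Necab1-low neurons. Genes longer than 100 kb gave 40.7% and 38.8% in members, against 27.9% and 33.5% in Calb2-high Necab1-low neurons. Of the genes called higher in members, 56.6% were longer than 100 kb, and of those called lower 32.5%, beside 15.5% of all genes tested. With cells under 1% ribosomal protein UMIs left out, the calls were 132 higher and 202 lower. Mouse 1 gave the Calb2-high Necab1-low group 13 cells. In mouse 2, haemoglobin genes summed to 22.5 CPM in members, against 1322 CPM in Calb2-high Necab1-low neurons, and Sst was at 0.555 CPM in members, against 57.5 CPM. The 10 markers of the medial habenula summed to 14.96 and 38.5 CPM in members, against 47.4 and 173 CPM in Calb2-high Necab1-low neurons, from which neurons with habenular markers had already been left out. The part of these in the result was not tested.

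Of 26 thalamic transcription factors, 4 were higher in members and 2 lower, with a median log2 fold change of 0.35. Lef1, a Wnt pathway factor, was at 499 and 285 CPM in members and 120 and 98.0 CPM in Calb2-high Necab1-low neurons (1.98 ± 0.26, adjusted p = 0.0041). Prox1, a homeobox factor, was at 178 and 218 CPM against 61.9 and 83.2 CPM (1.58 ± 0.24, adjusted p = 0.00836). Gbx2 was at 82.9 and 98.8 CPM against 38.2 and 53.6 CPM (1.08 ± 0.21, adjusted p = 0.021). Rora, a nuclear receptor of sensory thalamus, was at 2627 and 1890 CPM against 1074 and 868 CPM (1.38 ± 0.27, adjusted p = 0.022). Without the cells under 1% ribosomal protein UMIs the value for Rora was 1.02 and its call ended (adjusted p = 0.079), while Lef1, Prox1 and Gbx2 stayed called. The markers Ntng1, at 2970 and 2630 CPM against 1554 and 1118 CPM (1.23 ± 0.34, adjusted p = 0.0722), and Cck, at 606 and 619 CPM against 492 and 309 CPM (0.80 ± 0.24, adjusted p = 0.0873), were higher in both mice but missed the threshold. Tll1, already higher than in Tnnt1 relay neurons, was at 66.0 and 73.5 CPM in members against 10.5 and 7.23 CPM here (3.56 ± 0.63, adjusted p = 0.014). Without the cells under 1% ribosomal protein UMIs the value for Tll1 was 3.29 and just missed the threshold (adjusted p = 0.0533).

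Receptors and channels higher in members included Adra1b, an α1 adrenergic receptor, at 116 and 101 CPM against 25.01 and 19.4 CPM in Calb2-high Necab1-low neurons (2.53 ± 0.31, adjusted p = 0.00248). Grin2a, an NMDA receptor subunit, was at 695 and 482 CPM against 253 and 240 CPM (1.40 ± 0.26). Cacna1c, an L-type calcium channel, was at 1273 and 864 CPM against 353 and 405 CPM (1.64 ± 0.29). Without the cells under 1% ribosomal protein UMIs the log2 fold change was 0.88 for Grin2a (adjusted p = 0.178) and 1.12 for Cacna1c (adjusted p = 0.0539), and both calls ended. Adra1b, the auxiliary calcium channel subunit Cacnb4 (1.504 ± 0.24, adjusted p = 0.00916) and the potassium channel genes Kcnt2 (2.17 ± 0.40) and Kcnab1 (1.61 ± 0.33) kept theirs, although Kcnt2 and Kcnab1 lost them with cells of 2 to 5% ribosomal protein UMIs. Outside the lists, Npas2, a clock-type transcription factor, was at 137 and 125 CPM in members against 27.6 and 27.0 CPM (2.48 ± 0.25, adjusted p = 0.00114). The phosphatase gene Ptpn3 was at 527 and 449 CPM against 108 and 108 CPM (2.34 ± 0.24, adjusted p = 0.00114).

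Of 21 calcium-binding genes, 0 were higher in members and 5 lower, and 2 were higher and 4 lower without the cells under 1% ribosomal protein UMIs. Hpcal1 and Hpca, both visinin-like sensors, were at 10.3 and 7.86 CPM and at 11.2 and 4.31 CPM in members, against 108 and 87.9 CPM and 67.1 and 68.0 CPM in Calb2-high Necab1-low neurons (-3.31 ± 0.51 and -3.23 ± 0.48). Nrgn, neurogranin, a calmodulin-binding protein, was at 18.5 and 24.7 CPM against 470 and 310 CPM (-3.94 ± 0.27, adjusted p = 0.00037). The calmodulin-dependent phosphodiesterase genes Pde1a and Pde1c were at 12.8 and 16.9 CPM and at 3.96 and 5.18 CPM in members, against 145 and 166 CPM and 57.9 and 43.2 CPM (-3.27 ± 0.54 and -3.24 ± 0.30). Of 21 neuropeptide and granin genes, 1 was higher and 6 were lower. Among 47 axon guidance genes, 7 were higher and 6 lower, and 1 was higher and 5 lower without the cells under 1% ribosomal protein UMIs. The semaphorin co-receptor gene Nrp2 was at 5.50 and 7.24 CPM in members and 56.6 and 61.3 CPM in the other group (-3.04 ± 0.35, adjusted p = 0.00198). The cerebellin gene Cbln2 was at 37.6 and 39.0 CPM against 159 and 188 CPM (-2.04 ± 0.41, adjusted p = 0.0223). Klhl1 had the largest negative value among the named genes, at 1.10 and 2.04 CPM against 22.4 and 77.7 CPM (-4.97 ± 0.48, adjusted p = 0.00106). Erbb4, a neuregulin receptor, was lower (-3.145 ± 0.61, adjusted p = 0.0206) at levels that differed widely between the mice, 7.70 and 38.5 CPM in members and 59.2 and 412 CPM in the other group.

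**Figure D4:**
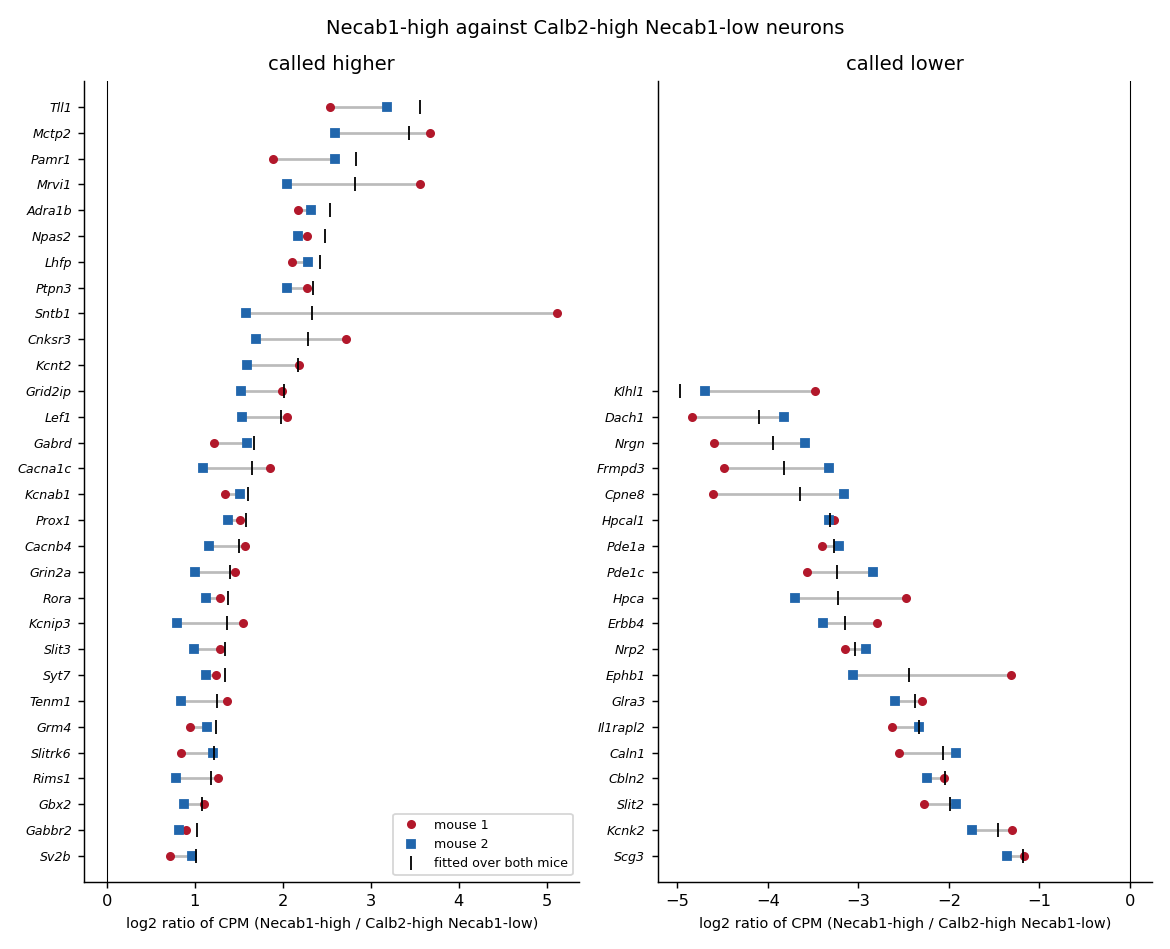
For the selected genes, the log2 ratio of CPM of Necab1-high over Calb2-high Necab1-low neurons within mouse 1 (circles) and mouse 2 (squares), with 1 CPM added to both, and the fitted log2 fold change (ticks); genes called higher are on the left and lower on the right. Nrgn, Nrp2, Pde1a and Hpcal1 lie near or below -3 in both mice.

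Of the 50 genes selected by that rule against Calb2-high Necab1-low neurons, 10 stayed past both thresholds under all 13 alternatives with a test: Adra1b, Cacnb4, Lef1, Lhfp and Ptpn3 among the higher ones, and Frmpd3, Klhl1, Nrgn, Nrp2 and Pde1c among the lower ones. The count of calls was 179 without the mouse as a block, 274 with the Necab1 threshold at 8 per 10000, 142 with cells of 2 to 5% ribosomal protein UMIs, and 1660 with habenular-marked cells kept in the other group.

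Within the members, Calb2-high cells differed from Calb2-low cells in 1.92% of 15975 genes, 107 higher (0.67%) and 200 lower (1.25%). RNA make-up moved with the split in both mice. Ribosomal protein genes gave 3.63% and 4.09% of UMIs in Calb2-high and 1.53% and 2.48% in Calb2-low members. Genes longer than 100 kb gave 27.9% and 32.9% in Calb2-high and 44.6% and 42.8% in Calb2-low members. The median log2 fold change ran from 0.36 for genes up to 10 kb to -0.72 for genes above 300 kb. The genes called lower had a median length of 163 kb (70.0% above 100 kb) against 24.8 kb for all genes and 18.4 kb for those called higher. When cells under 1% ribosomal protein UMIs were left out, leaving 13 and 311 Calb2-high and 19 and 312 Calb2-low members, 47 of 15366 genes were called, 35 higher and 12 lower, of which 41 were among the 307. All 107 higher and all 200 lower genes kept their sign, with 29 and 12 still called. The median log2 fold change of the higher genes was then 1.99 (2.09 with all members), and that of the lower genes -0.92 (-1.30).

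Of the 14 named higher genes, 7 stayed called without the cells under 1% ribosomal protein UMIs. Rab3b (chr4:108879063-108943324, plus strand), a GTPase of synaptic vesicles, was at 162 and 113 CPM in Calb2-high members and 2.01 and 7.21 CPM in Calb2-low members (4.66 ± 0.81, adjusted p = 0.0299). Thinned to 10000 UMIs, 23.1% and 43.9% of Calb2-high members had a Rab3b UMI, against 2.63% and 4.205% of Calb2-low members. The shares were 4.49% and 4.75% in Mog and Mag marked cells and 0% and 1.57% in Tnnt1 relay neurons. Whether the Mog and Mag marked cells or the relay neurons give the background level of Rab3b was not tested. In Calb2-high Necab1-low neurons, also selected for high Calb2, the shares were 46.2% and 37.0%, so Rab3b was not particular to the Calb2-high members. Necab2 (chr8:119446719-119472640, plus strand), the second family member, was at 204 and 138 CPM in Calb2-high and 55.9 and 48.8 CPM in Calb2-low members (1.56 ± 0.19, adjusted p = 0.00621). Nptxr was at 400 and 783 CPM against 101 and 174 CPM (1.98 ± 0.22, adjusted p = 0.00546). Nrgn (chr9:37544492-37552904, minus strand) was at 71.9 and 47.7 CPM against 2.29 and 8.69 CPM (2.97 ± 0.40, adjusted p = 0.0106). Ctxn1, encoding the small membrane protein cortexin, was at 97.5 and 102 CPM against 5.16 and 12.9 CPM (3.32 ± 0.42). Celf6, an RNA-binding protein, was at 70.1 and 64.2 CPM against 14.6 and 20.1 CPM (1.83 ± 0.28), and Cacna2d2 was at 94.7 and 97.5 CPM against 39.5 and 47.6 CPM (1.02 ± 0.18). Among cells with at least 1% ribosomal protein UMIs these 7 remained called, with log2 fold changes of 4.87 for Rab3b, 1.43 for Necab2, 1.78 for Nptxr, 2.61 for Nrgn, 2.92 for Ctxn1, 1.83 for Celf6 and 1.10 for Cacna2d2. With only cells of 2 to 5%, Necab2 (1.20) and Ctxn1 (2.80) stayed called and the other 5 did not, at 4.19 for Rab3b, 1.48 for Nptxr, 2.12 for Nrgn, 1.69 for Celf6 and 0.88 for Cacna2d2; over all 44 selected genes, 41 lost their call.

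The other 7 named higher genes passed the test over all members only: Hpcal4, Cnr1, Dlk1, Fxyd6, Marcksl1, Hopx and Nkain3, with log2 fold changes between 1.39 and 4.79. Cnr1, the cannabinoid receptor, was at 35.0 and 74.2 CPM in Calb2-high and 1.43 and 13.1 CPM in Calb2-low members (2.70 ± 0.53, adjusted p = 0.0363). Dlk1, a Notch pathway ligand, was at 90.9 and 19.8 CPM against 0 and 1.85 CPM (4.79 ± 0.91, adjusted p = 0.0371). Among cells with at least 1% ribosomal protein UMIs their values were about as large, 2.49 for Cnr1 (adjusted p = 0.11) and 4.42 for Dlk1 (adjusted p = 0.143), but missed the threshold. The same held for Hpcal4 (1.16, against 1.39 over all members), Fxyd6 (2.33, against 2.75), Marcksl1 (2.11, against 2.48) and Hopx (1.90, against 2.27). Nkain3 was larger there, at 3.05 (adjusted p = 0.0528), against 2.09 over all members.

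After the cells under 1% were left out, 6 genes were called that had not been over all members, all higher, among them Trpc5, Cacna1e, Gfra1, Grik1 and Zfpm2. Grik1, a kainate receptor subunit, was then at 365 and 298 CPM in Calb2-high and 71.1 and 99.0 CPM in Calb2-low members (log2 fold change 1.95, adjusted p = 0.0197), against 0.66 (adjusted p = 0.359) over all members. Zfpm2, a transcriptional cofactor, was at 47.3 and 65.9 CPM against 8.71 and 7.58 CPM (2.93, adjusted p = 0.00935). These genes fall outside the rule for naming and were chosen after their values were seen.

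Of the 30 named lower genes, 1, the glycogen branching enzyme gene Gbe1, stayed called without the cells under 1%. It was at 23.7 and 16.7 CPM in Calb2-high and 65.6 and 50.8 CPM in Calb2-low members (-1.71 ± 0.27, adjusted p = 0.0152), with a log2 fold change of -1.57 among the cells kept, and lost its call with cells of 2 to 5% (-1.43). Il1rapl1, a synaptic adhesion protein, was at 576 and 603 CPM against 1705 and 1584 CPM (-1.60 ± 0.24, adjusted p = 0.0114). Cacna1c was at 478 and 508 CPM against 1513 and 1113 CPM (-1.53 ± 0.25, adjusted p = 0.0177). Ryr3, an intracellular calcium release channel, was at 218 and 161 CPM against 605 and 563 CPM (-1.76 ± 0.25, adjusted p = 0.0109). None of these 3 was called without the cells under 1%, where Il1rapl1 was at -0.90, Cacna1c at -0.96 and Ryr3 at -1.22. The receptor genes Grin2a (-1.25 ± 0.23), Gria3 (-1.36 ± 0.28), Gabrb2 (-1.08 ± 0.25) and Adra1b (-1.41 ± 0.24) and the factors Nfia (-1.97 ± 0.39) and Lef1 (-1.26 ± 0.24) were lower over all members and lost their calls without those cells. Their values then were -0.66 for Grin2a, -1.12 for Gria3, -0.61 for Gabrb2 and -0.91 for Lef1, whereas Nfia (-1.89, adjusted p = 0.0892) and Adra1b (-1.35, adjusted p = 0.0538) moved little. The galanin gene Gal was at 1.89 and 22.3 CPM in Calb2-high and 42.4 and 60.5 CPM in Calb2-low members (-2.20 ± 0.42, adjusted p = 0.0299), and lost its call without those cells (-2.66, adjusted p = 0.0577). Why the long genes were lower was not tested.

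Gbx2, Cck and Ntng1 did not pass the test between the 2 subsets. Gbx2 was at 70.1 and 124 CPM in Calb2-high and 86.8 and 80.8 CPM in Calb2-low members (0.13 ± 0.25, adjusted p = 0.795), lower in mouse 1 and higher in mouse 2. Cck was at 1128 and 538 CPM in Calb2-high and 448 and 675 CPM in Calb2-low members (0.38 ± 0.31, adjusted p = 0.493), again opposite in the 2 mice. Ntng1 was lower in both, at 2104 and 2173 CPM against 3233 and 2951 CPM, without passing the test (-0.65 ± 0.31, adjusted p = 0.219). Among genes higher in members than in Tnnt1 relay neurons, Lhx2 was at 44.5 and 76.8 CPM in Calb2-high and 48.7 and 52.4 CPM in Calb2-low members (0.21 ± 0.36, adjusted p = 0.771). Thsd7b was at 52.1 and 271 CPM in Calb2-high and 347 and 656 CPM in Calb2-low members, a difference that missed the threshold (-2.06 ± 0.59, adjusted p = 0.0816).

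**Figure D5:**
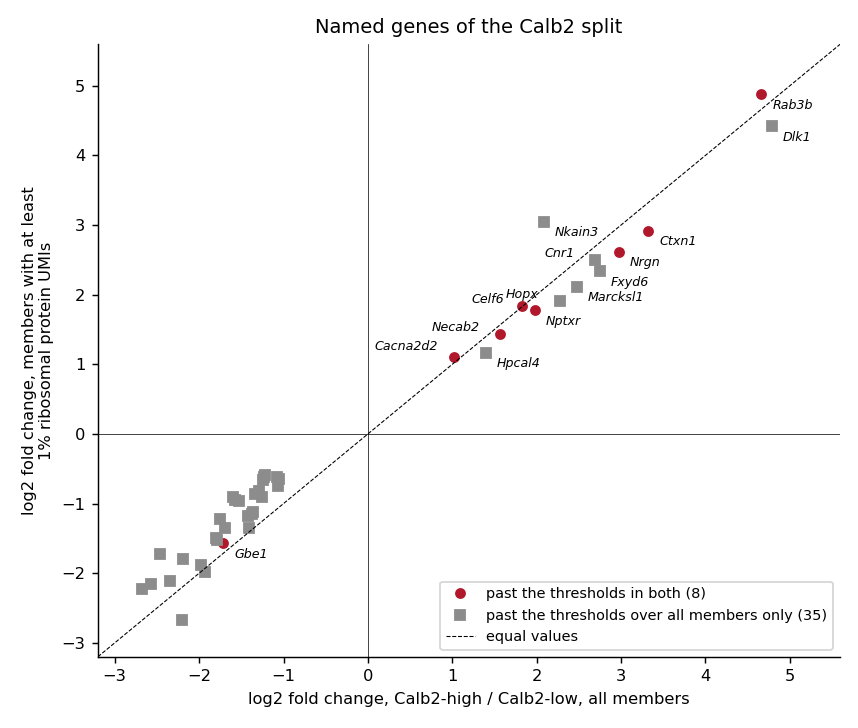
For 43 of the 44 genes selected in the Calb2 split, the log2 fold change of Calb2-high over Calb2-low members with all members (x axis) and with members of at least 1% ribosomal protein UMIs (y axis); the dashed line marks equal values. Circles are the 8 genes past both thresholds in both, and most lower genes lie above the line, nearer to 0.

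By list, beside 0.67% of all genes called higher and 1.25% lower, 3 of 21 calcium-binding genes were higher and none lower. Of these 3, only Necab2 stayed called without the cells under 1% ribosomal protein UMIs. Of the others, 6 of 55 neuromodulator receptors were higher and 2 lower (list median 0.35, or 0.19 with 1 gene at 0 UMIs in both sums of a subset set to its bound), and without those cells 0 of 52 were called. For vesicle genes, 3 of 38 were higher and 1 lower, of which Rab3b stayed called without those cells. Of 40 potassium channel genes, 1 was higher and 4 were lower, and without those cells 0 were called. Of 41 synapse organiser genes, 1 was higher and 4 were lower, and without those cells 1 was higher and 0 were lower. Among 47 axon guidance genes, 2 were higher and 5 lower with a median of -0.68 beside -0.01 over all genes. Without those cells the axon guidance median was -0.17 beside 0.01 over all genes, and Sema7a, which was lower, was the 1 gene of that list still called, named after its value was seen. Without the mouse as a block 1 gene was called, and with the Necab1 threshold at 8 per 10000, where mouse 1 gave 5 Calb2-high cells, 4 were. Of the 44 genes selected in this split, none stayed called under all 14 alternatives with a test.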

How the data were processed

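Per the labels, the kit was 10x 3' v3. Per the file headers and the submitters' processing notes, the deposited values are UMI counts per gene and barcode from Cell Ranger 7.1.0 on mm10; Seurat 5 is named with no role. Whether introns and strand entered the counting is not given here, and 51 of 143 described genes overlap a gene on the other strand in GENCODE vM21 (GRCm38); if strand was not used, reads of such pairs cannot be told apart.

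The members, gene lists and comparisons were chosen with earlier results of these data known. Counts were summed per mouse and neuron group (10 sums, or 12 for the Calb2 split, with 4 and 5 residual degrees of freedom) and tested with edgeR 4.0.16 in R 4.3.3 (TMM scaling, filterByExpr, robust quasi-likelihood fit on mouse and group). The 8 genes of the rule and mitochondrial genes were left out of tests, as were Calb2, Pou4f1, Chrnb3 and Chrnb4 against Calb2-high Necab1-low neurons and Calb2 in the split. SEs were taken from the fold change and its F statistic. Mouse was a block because every group comes from the same 2 animals. The common biological coefficient of variation was 0.186 (0.183 for the split). Named genes were, per comparison, up to 4 called genes per list with the largest absolute log2 fold change, the same direction in both mice and 50 CPM or more in the higher group, plus up to 8 higher and 8 lower from outside the lists. A few genes this selects are not reported here. Ribosomal protein genes are those named Rpl, Rps, Rplp or Rpsa without pseudogenes. Doublets were sought with Scrublet in scanpy 1.11.5 and kept. On simulated sums with 15294 genes tested for the comparison with Tnnt1 relay neurons, 40% of 2-fold and 100% of 4-fold changes were called, so many smaller differences can be missed. The simulation gave all genes the same spread and no difference between mice, and changed only genes above a minimum expected count. It does not give the power for genes with few counts or a larger spread, where larger differences can be missed too. Alternatives were DESeq2 1.42.0, other scaling, filters, gates and thresholds. P-values rest on 2 animals, and the same cells were gated and tested.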

Additional observations from a re-analysis of the deposited data

How the results depend on the processing

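Across scalings, filters, gates and tests, the count of genes called against Tnnt1 relay neurons (1031) ran from 829 to 1237 and that against Calb2-high Necab1-low neurons (595) from 581 to 779, except as follows. Without the mouse as a block the counts were 429, 179 and, in the Calb2 split (main count 307), 1. With Necab1 at 8 per 10000 they were 274 and 4 in the last 2 comparisons, with 543 members in place of 912. Keeping habenular-marked cells gave 1660 against Calb2-high Necab1-low neurons. In the split, no filter on low counts gave 462, fitting only the 2 subsets 785, no Gad UMI 482, and Calb2-low below 1.5 per 10000 gave 662. DESeq2 gave 453 in the split, of which 234 were among the 307, so the other main calls there depended on the test used. With restrictions on ribosomal protein UMIs chosen after seeing the data, cells with at least 1% gave 334 against Calb2-high Necab1-low neurons and 47 in the split, and cells with 2 to 5% gave 516, 142 and 21. Leaving out each mouse leaves no residual degrees of freedom, so that no test was made: 855 to 960 of the 1031 calls, 463 to 505 of the 595, and 215 to 269 of the 307 had the same sign and a log2 ratio of 1 or more in size in the mouse that remained. The split of the 595 calls into higher and lower, 53.4% higher, became 39.5% with cells of at least 1% ribosomal protein UMIs; in the Calb2 split 34.9% became 74.5%. No named gene changed sign under the alternatives with a test. When a mouse was left out none could, because the naming rule asks for the same direction in both mice. Among markers that were not called, signs turned for Ntng1 against Tnnt1 relay neurons when a mouse was left out (-0.0032 to 0.013), for Cck in the split when a mouse was left out (-0.33 to 1.33) and with at least 1% ribosomal protein UMIs (-0.00399), and for Gbx2 in the split when a mouse was left out (-0.31 to 0.62), with Necab1 at 8 (-0.30), and with at least 1% (-0.19) or 2 to 5% (-0.39) ribosomal protein UMIs; the cause was not tested. Precision is limited by the cells of mouse 1, which gave 13 Calb2-high members and 13 Calb2-high Necab1-low neurons.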
